A study of Mus musculus with 32 samples.

Results

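The 39 type I interferon-stimulated genes described here were chosen by name, from Isg15 to Ifitm3, as a module of genes that cells switch on in answer to interferon alpha and beta. All 39 were present among the 33924 genes of the count table, and all 39 passed the filter on low counts in both cell types. The genes were followed in stem cell-enriched LSK cells (lineage-negative, Sca1+, Kit+) and in megakaryocyte-erythroid progenitors (MEP) sorted from mouse bone marrow. RNA sequencing counts were available for 32 libraries, 16 of each cell type.

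Every library came from cells of genotype Jak2V617F, an activating form of the Janus kinase gene Jak2 that drives myeloproliferative neoplasms. The allele had been switched on outside the body with mRNA of the recombinase Dre, and the cells had then been given to lethally irradiated recipient mice, so that host cells may remain. In batch A, tamoxifen activated Cre and deleted the allele, and cells were taken at day 3 (4 MEP and 3 LSK libraries) or day 7 (3 MEP and 4 LSK libraries), against vehicle at day 0 (3 MEP and 4 LSK libraries). In batch C, mice received the Janus kinase inhibitor ruxolitinib until day 7 (3 MEP and 3 LSK libraries), against vehicle at day 0 (3 MEP and 2 LSK libraries). The vehicle libraries of the batches are called vehicle A and vehicle C. They carry the same animal numbers (12, 32 and 33 for MEP, 12 and 18 for LSK), so vehicle C is not an independent set of animals. Number 18 also stands on day 7 libraries of both cell types. No group received tamoxifen without a deletable allele or ruxolitinib without Jak2V617F, and the labels name neither the Cre driver, nor the content of the vehicle, nor the age of the mice. Effects of tamoxifen, of Cre and of allele loss therefore cannot be told apart, nor can treatment and day.

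Type I interferons bind the receptor pair Ifnar1 and Ifnar2, which activates the kinases Jak1 and Tyk2. These phosphorylate Stat2, which takes part with Irf9 in a complex that binds the interferon-stimulated response element in the promoters of its target genes. In blood stem cells, interferon is known to push dormant cells into cycle, and stem cells are known to hold a standing level of several target genes. Ruxolitinib inhibits Jak1 as well as Jak2, and so acts on the interferon receptor's own kinase, whereas the Cre deletion was aimed at the Jak2V617F allele alone.

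The response element was looked for in the RefSeq promoter windows of build GRCm38.p6, which run from 250 bases before to 50 bases after a gene's start. The letters searched were GAAANNGAAA on either strand, with overlapping matches counted. Of the 39 genes, 27 had a window and 13 of these held a match (48.1%), against 1079 of all 27025 genes with a window (3.99%). The palindromic STAT site TTCNNNGAA, searched in the same windows, was found in 6 of the 27 (22.2%) and in 9.55% of all genes. Among the 17 genes with a window that passed the test in MEP cells in at least 1 treatment comparison, 9 held the response element, and among the other 10 it was 4. A match describes letters and is not a measured site.

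The 6 stretches of 100 bases below belong to the genes with a match that had the smallest adjusted p in any treatment comparison, and show what the element looks like in the genes whose counts moved. Each is written 5′ to 3′ on the gene's strand with the matches in capitals. Rsad2 and Ddx58 have single matches, Ddx60 and Ifit1 have separate pairs, and the pair in Oas1a overlaps. The coordinates are chr12:26456518-26456617 (minus strand) for Rsad2, chr8:61928023-61928122 (plus strand) for Ddx60, chr4:40239776-40239875 (minus strand) for Ddx58, chr19:34640759-34640858 (plus strand) for Ifit1, chr5:120777680-120777779 (minus strand) for Oas3 and chr5:120907485-120907584 (minus strand) for Oas1a.
Rsad2: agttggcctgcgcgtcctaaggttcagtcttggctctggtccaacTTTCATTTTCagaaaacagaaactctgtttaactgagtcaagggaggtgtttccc
Ddx60: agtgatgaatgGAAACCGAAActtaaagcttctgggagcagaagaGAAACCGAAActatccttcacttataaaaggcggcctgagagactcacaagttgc
Ddx58: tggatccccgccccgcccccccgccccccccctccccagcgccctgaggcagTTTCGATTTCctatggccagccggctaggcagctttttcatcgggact
Ifit1: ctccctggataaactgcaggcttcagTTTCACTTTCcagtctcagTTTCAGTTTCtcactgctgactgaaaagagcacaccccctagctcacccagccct
Oas3: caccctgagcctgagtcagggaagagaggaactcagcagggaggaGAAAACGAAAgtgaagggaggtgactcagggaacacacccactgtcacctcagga
Oas1a: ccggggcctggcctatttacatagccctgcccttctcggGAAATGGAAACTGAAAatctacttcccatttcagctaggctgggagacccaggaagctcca

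Total counts per library ran from 11160696 to 55473241, with batch C the deeper, and the shallowest was MEP day 7 replicate 2. Levels are in CPM, a library's counts for a gene divided by its scaled size, on sizes shared by all 32 libraries, and changes are fitted log2 fold changes with standard errors from a fit within each cell type. A gene is said to have risen or fallen where edgeR's quasi-likelihood test passed 0.05 after Benjamini-Hochberg adjustment over all genes tested. Jak2 itself lay between 12.4 and 41.7 CPM and passed in none of the 6 treatment comparisons (lowest adjusted p = 0.215 in the edgeR quasi-likelihood test). The counts cover the whole gene and do not separate the mutant allele. Summed markers of the MEP sort were 5960 to 18000 CPM in MEP libraries and 782 to 3490 CPM in LSK libraries. In bulk samples, fewer cells of a type and less RNA per cell cannot be told apart.

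At day 3 after tamoxifen, 11 of the 39 genes rose in MEP cells and 0 fell, against 0.886% higher and 0.324% lower among all 25274 genes tested there. The median log2 change was 0.85 over the 39 genes and 0.00 over all genes tested. At an unadjusted p under 0.05 in the edgeR test, 24 of the 39 were higher and 1 was lower, and DESeq2 also called 0 lower. The mean level of the 39 genes per library, on the log2(CPM + 1) scale, was 5.15 ± 0.31 at day 3 (SD, n = 4) and 4.32 ± 0.30 in vehicle A (SD, n = 3), and the libraries did not overlap.

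**Figure D1:**
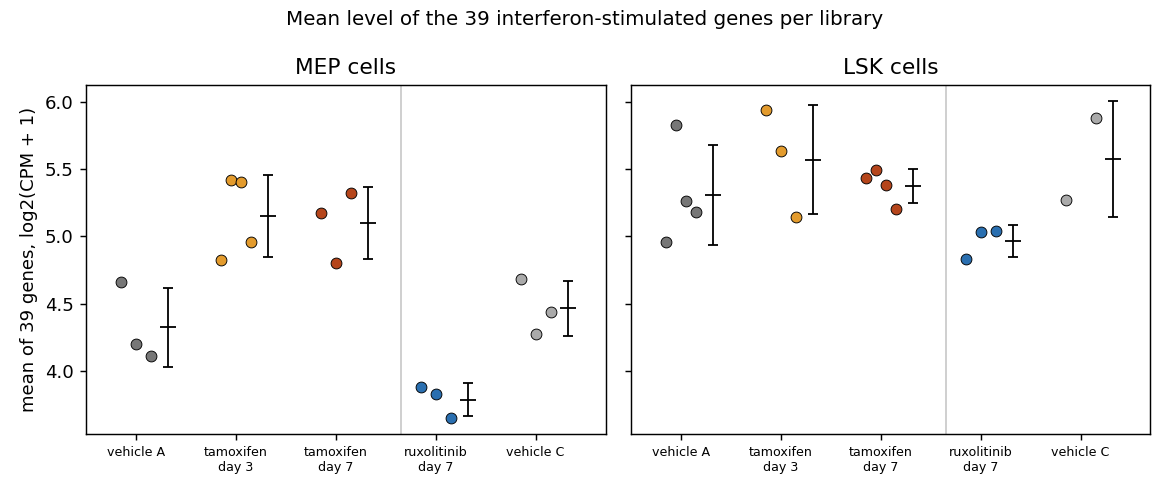
Mean of log2(CPM + 1) over the 39 genes in each library (points), with the group mean and SD beside them (bars), for MEP cells on the left and LSK cells on the right. In MEP cells the tamoxifen libraries lie at 4.80 to 5.42 and vehicle A at 4.11 to 4.66, and ruxolitinib lies at 3.65 to 3.88 with vehicle C at 4.27 to 4.68, whereas LSK tamoxifen and vehicle A libraries overlap.

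Rtp4, which encodes a receptor transporter protein induced by interferon, had the largest change of the 11. It stood at 20.1, 68.7, 68.1 and 32.7 CPM at day 3, against 12.5, 3.02 and 4.79 CPM in vehicle A, a log2 change of 2.84 ± 0.52 (SE; edgeR adjusted p = 0.00462). Ddx60, a helicase that assists RNA sensing, was at 16.3, 37.4, 29.9 and 15.2 CPM, against 5.11, 3.61 and 6.28 CPM in vehicle A (2.30 ± 0.39; edgeR adjusted p = 0.00194). In both genes every day 3 library lay above every vehicle A library, with replicates 2 and 3 the highest.

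Ifit1, which binds foreign RNA, was at 5.71, 26.1, 25.0 and 17.9 CPM at day 3, against 3.71, 3.19 and 4.96 CPM in vehicle A, a log2 change of 2.24 ± 0.53 (SE; edgeR adjusted p = 0.0311). The ubiquitin-like modifier Isg15 was at 12.2, 18.9, 15.1 and 10.6 CPM, against 5.11, 2.21 and 2.52 CPM in vehicle A (2.13 ± 0.42; edgeR adjusted p = 0.00759). Replicate 1 was close to vehicle A for Ifit1 but clearly above it for Isg15, and the groups did not overlap in either gene.

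Ifi44, a cytoplasmic protein induced by interferon, was at 7.15, 21.4, 21.1 and 13.4 CPM at day 3, against 3.40, 4.42 and 5.47 CPM in vehicle A, a log2 change of 1.82 ± 0.38 (SE; edgeR adjusted p = 0.0136). Cmpk2, a mitochondrial nucleotide kinase whose gene adjoins Rsad2 on chromosome 12, was at 49.0, 127.9, 61.5 and 66.5 CPM, against 25.2, 33.0 and 19.8 CPM in vehicle A (1.56 ± 0.35; edgeR adjusted p = 0.0215). Replicate 2 stood highest for Cmpk2, and all 4 day 3 libraries exceeded vehicle A. The remaining genes that rose were Xaf1, Rsad2, Oasl1, Dhx58 and Parp9, with log2 changes of 1.53 to 1.03. Rsad2 encodes the antiviral enzyme viperin, Oasl1 a relative of the oligoadenylate synthetases, and Dhx58 a regulator of RNA sensing. The groups did not overlap in any of the 11 genes. These had been picked by the test, so this adds no separate evidence, and the share over all genes was not counted. Among the 28 that did not pass, Zbp1, a sensor of nucleic acids, had the largest value (1.98) and Ifit2 the lowest (-0.58).

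The count at day 3 depended on single libraries. It fell to 2 (Ddx60 and Ifi44) without vehicle A replicate 3, to 4 without day 3 replicate 3, to 5 without day 3 replicate 2 and to 7 without vehicle A replicate 2, and it reached 16 without day 3 replicate 1. Among genes with a mean CPM of at least 10, tested alone, 17 of 30 members rose, against 5.39% of 8161 genes. The mean is over all 16 MEP libraries. Some members, such as Ifi44 and Ddx60, were under 10 CPM in every MEP vehicle and ruxolitinib library. They pass this minimum only through tamoxifen libraries, so it is not independent of the change.

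**Figure D2:**
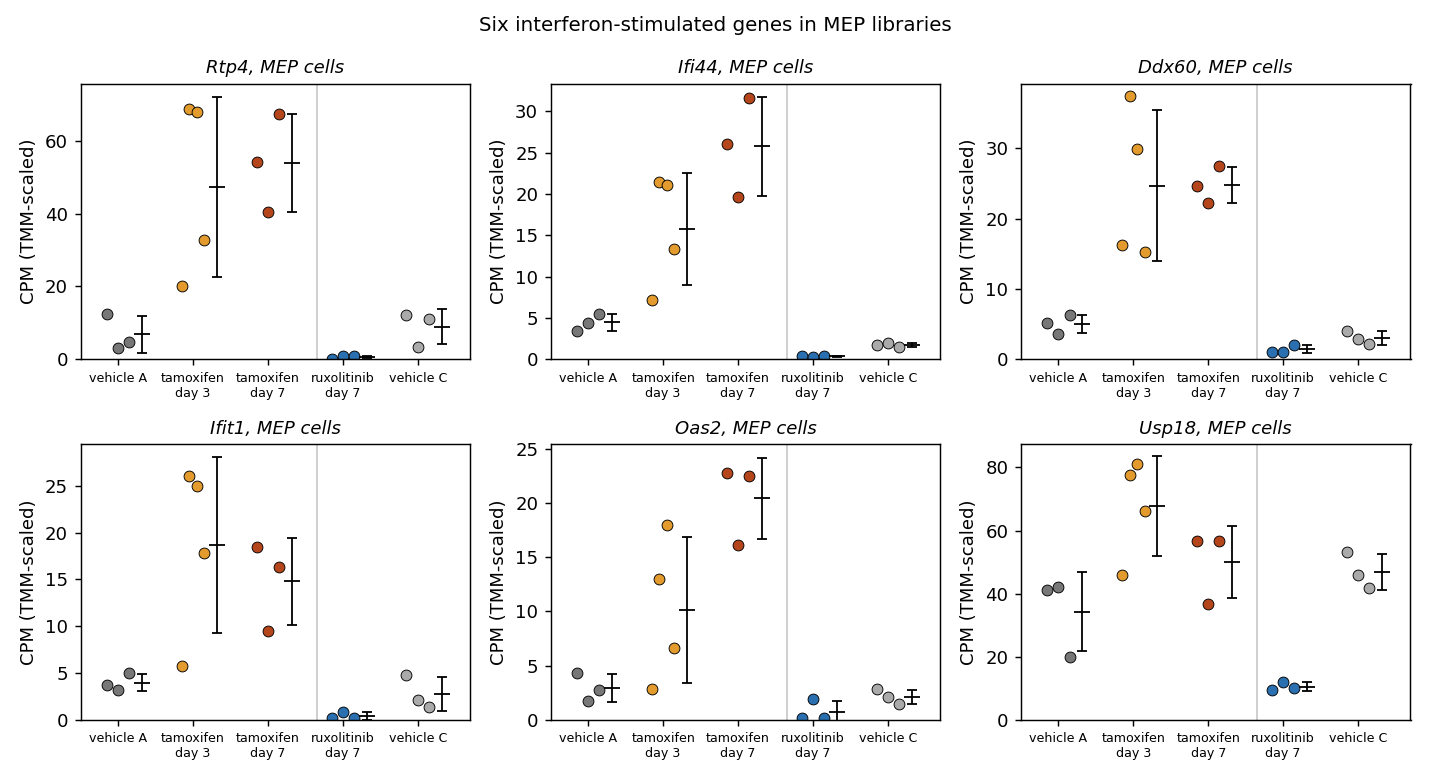
CPM of 6 of the genes in each MEP library (points), with the group mean and SD beside them (bars); the vertical line separates batch A from batch C. Rtp4, Ifi44, Ddx60 and Ifit1 lie above vehicle A in every tamoxifen library, Oas2 does so at day 7, and under ruxolitinib Rtp4 lies at 0.092 to 0.803 CPM.

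At day 7 after tamoxifen, 17 of the 39 genes were higher in MEP cells and 0 lower, against 1.38% higher and 7.03% lower among all genes tested. The median log2 change was 0.69 over the 39 genes and 0.21 over all genes. By mean level over the MEP libraries, the median of all genes was 0.45 at 1 to 3 CPM and 0.36 at 3 to 10 CPM. It was -0.06 at 10 to 30 CPM, -0.38 at 30 to 100 CPM and -0.60 over 100 CPM. For the members the medians at these levels were 0.69, 1.85, 1.63, 0.28 and 0.15. The mean level includes the tamoxifen libraries. The median of the 39 was 1.05 without vehicle A replicate 1, 1.08 with a GC offset (0.66 over all genes) and 1.21 with scaling by total counts (0.72 over all genes). At an unadjusted p under 0.05, 20 were higher and 2 lower in the edgeR test, and DESeq2 called 1 lower, the ubiquitin ligase gene Trim25. The comparison at day 7 uses the same vehicle A libraries as that at day 3, so the calls are not independent evidence.

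Oas2, one of the synthetases whose oligoadenylates activate RNase L, was at 22.8, 16.1 and 22.5 CPM at day 7, against 4.33, 1.74 and 2.78 CPM in vehicle A, a log2 change of 2.84 ± 0.66 (SE; edgeR adjusted p = 0.00562). Oasl2, an oligoadenylate synthetase-like gene, was at 21.9, 19.7 and 32.1 CPM, against 9.34, 5.23 and 5.26 CPM in vehicle A (1.95 ± 0.52; edgeR adjusted p = 0.0161). Each gene's day 7 libraries were all above vehicle A, and replicate 2, the shallowest library, was the lowest. Oas3 and Oas1a, of the same family, rose by 1.76 ± 0.42 and 1.38 ± 0.35, and Oasl1 by 0.90 ± 0.27.

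Rtp4 was at 54.1, 40.5 and 67.4 CPM at day 7, against the 3.02 to 12.5 CPM of vehicle A, a log2 change of 3.06 ± 0.54 (SE; edgeR adjusted p = 0.000349). Ifi44 was at 26.1, 19.6 and 31.6 CPM, against 3.40 to 5.47 CPM in vehicle A (2.57 ± 0.41; edgeR adjusted p = 8.46e-05). Both genes were separated from vehicle A in every library, as was Ddx60, at 24.7, 22.3 and 27.5 CPM against 3.61 to 6.28 CPM (2.34 ± 0.40; edgeR adjusted p = 0.000235).

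Mx2, an interferon-induced GTPase gene listed as a polymorphic pseudogene in the mouse annotation, was at 2.28, 5.19 and 5.96 CPM at day 7, against 1.03, 1.49 and 0.427 CPM in vehicle A, a log2 change of 2.22 ± 0.62 (SE; edgeR adjusted p = 0.0225). These levels are low but the groups did not overlap. Its relative Mx1 was at 2.31, 4.06 and 3.55 CPM, against 1.91, 2.21 and 3.21 CPM in vehicle A, and did not pass (0.45 ± 0.70). Of the cytoplasmic RNA sensors, Ddx58 (RIG-I) rose by 1.64 ± 0.29 and Dhx58 by 1.18 ± 0.29, whereas Ifih1 (MDA5) changed by 0.28 ± 0.26 and did not pass. Ifit1, Xaf1, Isg15, Sp100, Rsad2 and Parp9 made up the rest of the 17, with log2 changes of 1.94 to 0.86. Day 7 and vehicle A libraries overlapped in 1 of the 17 genes, Oasl1, but the 17 had been picked by the test and the share over all genes was not counted. The values of the 22 that did not pass ran from -0.76 for Trim25 to 1.85 for Zbp1.

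The number of genes that rose at day 7 was 7 without day 7 replicate 3 and 9 without vehicle A replicate 2 or 3, and 26 when libraries were scaled by total counts alone. That scaling moved all genes up, with a median over all genes of 0.72 against 0.21. The median of the 39 less that of all genes was 0.49 with it and 0.48 in the main fit. Among genes with a mean CPM of at least 10, tested alone, 21 of 30 members rose, against 14.6% of genes, and 1, Trim25, fell, against 19.3%. As at day 3, some members pass that minimum only through the tamoxifen libraries. Between day 7 and day 3 in MEP cells, 2 of the 39 passed, both lower at day 7, against 7.47% of genes in either direction. Trim25 was at 58.2, 35.8 and 66.8 CPM at day 7 and at 155.5, 131.3, 144.2 and 98.0 CPM at day 3 (-1.25 ± 0.24; edgeR adjusted p = 0.000737), and Cmpk2 had a log2 change of -1.32 ± 0.34 (edgeR adjusted p = 0.0133).

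**Figure D3:**
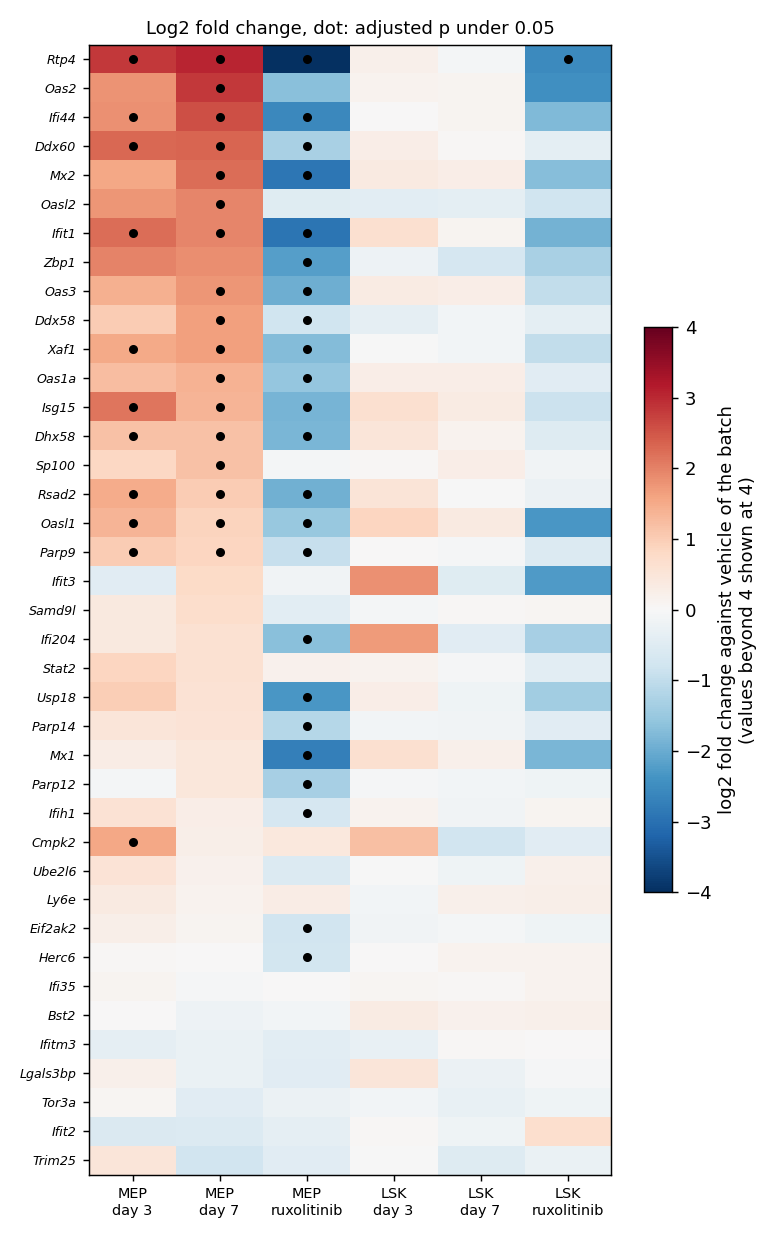
Log2 fold change of the 39 genes (rows, ordered by MEP day 7) in the 6 treatment comparisons (columns), each against vehicle of its batch; red is higher and blue lower than vehicle, and a dot marks an adjusted p under 0.05. The tamoxifen columns hold 11 and 17 dots in MEP cells and 0 and 0 in LSK cells, and the ruxolitinib columns hold 23 in MEP cells and 1 in LSK cells.

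Under ruxolitinib, 23 of the 39 genes fell in MEP cells and 0 rose, against 38.5% lower and 3.43% higher among all genes tested. No member was higher at an unadjusted p under 0.05 in the edgeR test, and DESeq2 called 0 higher. The change differed with a gene's level. Over all genes tested, the median log2 change was -2.40 for genes at 1 to 3 CPM, -1.28 at 3 to 10 CPM, -0.07 at 10 to 30 CPM and 0.10 at 30 to 100 CPM. Over the 39 genes the median was -0.93, and over all genes it was -1.07. Above 10 CPM the 39 genes stood lower than the rest. At 10 to 30 CPM the median of the 12 members was -1.42. Of these, 9 fell, against 15.1% of all genes at that level. At 30 to 100 CPM, 7 of 15 fell, against 6.21%. The level is a mean over all 16 MEP libraries, and some members exceed 10 CPM only through the tamoxifen libraries. In vehicle C, Ifi44 was at 1.49 to 1.95 CPM and Ddx60 at 2.15 to 4.03 CPM. How far this shaped the counts was not tested. In the test of genes with a mean CPM of at least 10 alone, 18 of 30 members fell, against 9.88% of genes, with a median of -0.80 against -0.01. That mean also includes the tamoxifen libraries, so the same limit holds there.

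Usp18, which strips Isg15 from proteins and blocks the interferon receptor, was at 9.34, 12.1 and 10.04 CPM under ruxolitinib, against 53.1, 45.8 and 41.7 CPM in vehicle C, a log2 change of -2.33 ± 0.31 (SE; edgeR adjusted p = 6.01e-05). Rtp4 was at 0.092, 0.803 and 0.764 CPM, against 12.2, 3.40 and 11.1 CPM in vehicle C (-4.07 ± 0.62; edgeR adjusted p = 0.000112). Each treated library lay below each vehicle C library in both genes, and replicate 1 was the lowest for both.

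Ifit1 was at 0.184, 0.843 and 0.191 CPM under ruxolitinib, against 4.77, 2.10 and 1.35 CPM in vehicle C, a log2 change of -2.93 ± 0.63 (SE; edgeR adjusted p = 0.00105). Ifi44 was at 0.368, 0.201 and 0.382 CPM, against 1.69, 1.95 and 1.49 CPM in vehicle C (-2.58 ± 0.48; edgeR adjusted p = 0.000408). The groups did not overlap in either gene. By mean level over the MEP libraries, Ifit1 belongs to the genes of 3 to 10 CPM, whose median change was -1.28, and Ifi44 to those of 10 to 30 CPM, whose median was -0.07. That mean includes the tamoxifen libraries, and Ifi44 exceeds 10 CPM only through these. Genes of 1 to 3 CPM, the range of Ifi44 in vehicle C, had a median of -2.40.

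Mx2 was at 0.322, 0.241 and 0.0382 CPM under ruxolitinib, against 1.48, 1.77 and 0.513 CPM in vehicle C, a log2 change of -2.88 ± 0.70 (SE; edgeR adjusted p = 0.00268). Mx1 was at 0.644, 0.1205 and 0 CPM, against 0.864, 2.10 and 1.35 CPM in vehicle C (-2.72 ± 0.82; edgeR adjusted p = 0.011). The median of all genes of 1 to 3 CPM, where both Mx genes belong, was -2.40. Among members with a mean of at least 10 CPM over the MEP libraries, Rsad2 fell by 1.91 ± 0.31, Dhx58 by 1.84 ± 0.29, Xaf1 by 1.75 ± 0.35, Oasl1 by 1.51 ± 0.28 and Parp9 by 0.93 ± 0.25 on the log2 scale. Rsad2 was at 2.17 to 2.90 CPM under ruxolitinib and 8.63 to 9.09 CPM in vehicle C, and exceeds 10 CPM only through the tamoxifen libraries. The others that fell were Zbp1, Oas3, Isg15, Ifi204, Oas1a, Parp12, Ddx60, Parp14, Ddx58, Eif2ak2, Herc6 and Ifih1, with values of -2.19 to -0.68, and ruxolitinib and vehicle C libraries overlapped for Zbp1, Parp12, Eif2ak2 and Ifih1. Eif2ak2 encodes PKR, which halts translation on double-stranded RNA, and Herc6 a ligase that attaches Isg15. Cmpk2, neighbour of Rsad2, was at 104.0, 89.2 and 53.1 CPM, against 30.4, 42.5 and 101.1 CPM in vehicle C, and did not pass (0.41 ± 0.35).

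**Figure D4:**
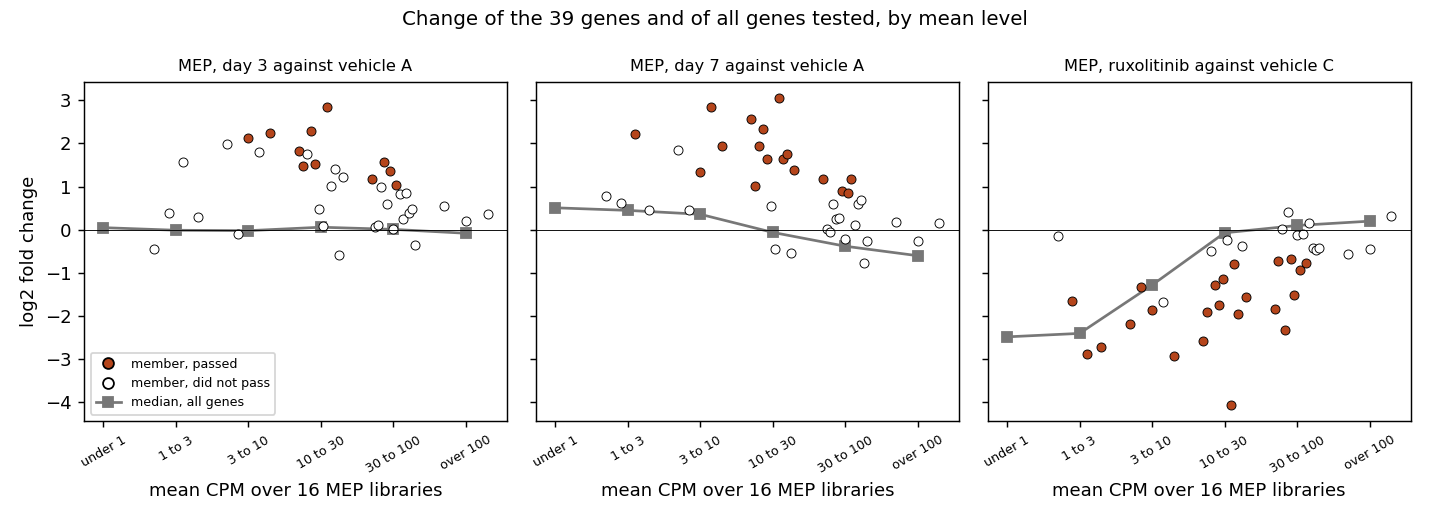
Log2 fold change of the 39 genes in MEP cells (circles, filled where the test passed) and the median of all genes tested (squares), by mean CPM over the 16 MEP libraries, for day 3, day 7 and ruxolitinib. Under ruxolitinib the median of all genes is -2.40 at 1 to 3 CPM and 0.10 at 30 to 100 CPM. Members of low level lie along the median and many above 10 CPM lie below it. The mean includes the tamoxifen libraries, and some members, such as Ifi44, lie above 10 CPM only through these.

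The difference between the day 7 response and the ruxolitinib response, each against its own vehicle, was tested directly in MEP cells. It was above 0 in 32 of the 39 genes and passed the test as positive in 26, against 36.5% of all genes that passed as positive, with a median of 1.80 over the 39 genes and 1.38 over all. Rtp4 had the largest difference, 7.13 ± 0.83 (SE; edgeR adjusted p = 1.97e-06). Vehicle C and vehicle A differed for 1 of the 39 genes in MEP cells (3.52% of all genes), namely Ifi44, at 1.69, 1.95 and 1.49 CPM in vehicle C and 3.40, 4.42 and 5.47 CPM in vehicle A (-1.54 ± 0.41; edgeR adjusted p = 0.0358).

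Markers of other cells also moved in MEP libraries. The 6 markers of plasmacytoid dendritic cells, the main interferon producers, summed to 6.50 to 13.2 CPM at day 3 and 11.2 to 14.1 CPM at day 7, against 6.09 to 8.71 CPM in vehicle A, and to 0.874 to 0.924 CPM under ruxolitinib, against 2.66 to 6.29 CPM in vehicle C. The 7 macrophage markers summed to 22.2 to 28.7 CPM at day 3 and 37.3 to 49.6 CPM at day 7, against 21.7 to 32.2 CPM in vehicle A, and to 13.5 to 26.7 CPM under ruxolitinib, against 14.5 to 20.8 CPM in vehicle C. The 7 markers of the LSK sort summed to 599 to 867 CPM at day 3 and 755 to 1230 CPM at day 7, against 285 to 625 CPM in vehicle A, and to 835 to 1010 CPM under ruxolitinib, against 217 to 660 CPM in vehicle C. The LSK markers lay above vehicle in every library at day 7 and under ruxolitinib, and overlapped it at day 3.

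The megakaryocyte list summed to 190 to 325 CPM at day 7, against 25.8 to 60.1 CPM in vehicle A, and to 262 to 420 CPM under ruxolitinib, against 29.3 to 58.3 CPM in vehicle C. The B and plasma cell list was at 7.19 to 13.3 CPM at day 3 and 29.6 to 52.2 CPM at day 7, against 5.04 to 6.71 CPM in vehicle A, and at 7.60 to 13.3 CPM under ruxolitinib, against 2.38 to 5.96 CPM in vehicle C. These lists were above vehicle in every library of the groups named. The T and NK cell list was at 61.6 to 112 CPM at day 7, against 15.5 to 35.9 CPM in vehicle A, and at 128 to 164 CPM under ruxolitinib, against 10.1 to 46.8 CPM in vehicle C. The neutrophil list was at 31.8 to 46.1 CPM at day 7, against 6.81 to 9.22 CPM in vehicle A, and at 0.802 to 1.20 CPM under ruxolitinib, against 1.73 to 5.68 CPM in vehicle C. The monocyte list was at 63.9 to 83.2 CPM at day 7, against 29.4 to 44.7 CPM in vehicle A, and at 45.4 to 71.3 CPM under ruxolitinib, against 10.5 to 37.5 CPM in vehicle C. At day 7 the 4 late erythroid genes present in the count table were at 173 to 228 CPM, against 162 to 1050 CPM in vehicle A. Every marker present in the count table had counts in each group, and named markers absent from it were left out. The part of these cells in the changes of the 39 genes was not tested.

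In LSK cells, 0 of the 39 genes passed at day 3 after tamoxifen, against 0% of all 26930 genes tested, and 0 at day 7, against 0.104%. At an unadjusted p under 0.05 the edgeR test gave 3 genes at day 3, all higher, and 1 at day 7, lower, and DESeq2 called 0 at each time. The spread between libraries was wide: the mean level of the 39 genes was 5.57 ± 0.40 at day 3 (SD, n = 3) and 5.38 ± 0.12 at day 7 (SD, n = 4), against 5.31 ± 0.37 in vehicle A (SD, n = 4). Vehicle A replicate 2, at 5.83, was above all day 7 libraries and 2 of the 3 day 3 libraries. Vehicle A replicate 4 held 5950 CPM of B and plasma cell markers, against 51.5 to 239 CPM in the tamoxifen libraries, and their part in the result was not tested. Between day 7 and day 3, 0 of the 39 passed in LSK cells by the edgeR test, against 0.00743% of all genes, with 4 at an unadjusted p under 0.05 and 3 by DESeq2 (Cmpk2, Ifi204 and Ifit3, lower at day 7).

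Ifit3, an RNA-binding partner of Ifit1, was at 23.1, 16.1 and 26.8 CPM in LSK cells at day 3, against 5.44, 2.83, 16.03 and 1.33 CPM in vehicle A (1.82 ± 0.58; edgeR adjusted p = 0.707). The DNA sensor gene Ifi204 was at 16.6, 11.7 and 26.0 CPM, against 3.21, 2.67, 14.9 and 2.52 CPM in vehicle A (1.69 ± 0.56; edgeR adjusted p = 0.733). The vehicle A value near the day 3 values is replicate 3 for both genes. Without that library both passed, Ifit3 at 2.77 ± 0.51 (edgeR adjusted p = 0.0208) and Ifi204 at 2.69 ± 0.45 (edgeR adjusted p = 0.00979).

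The same LSK libraries stood apart in macrophage markers. The 7 markers summed to 2100, 1070 and 6560 CPM at day 3, against 165, 141, 3040 and 123 CPM in vehicle A, and to 150 to 327 CPM at day 7. The 4 libraries at 1070 CPM or more were those with the most Ifit3 and Ifi204. Rtp4 was at 107, 72.2 and 49.0 CPM at day 3, against 48.0 CPM in vehicle A replicate 3 and 45.7 to 110.7 CPM in the other vehicle A libraries. Whether macrophage RNA supplied these counts was not tested. Ifit3 and Ifi204 have near-identical family copies, whose reads the counting may have shared.

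**Figure D5:**
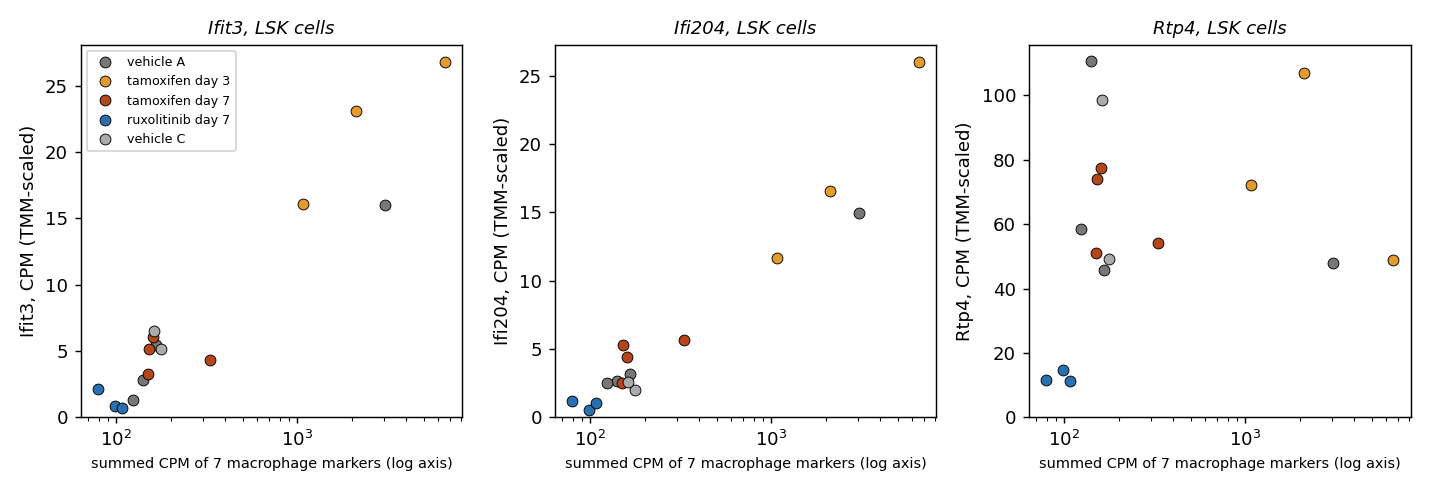
CPM of Ifit3, Ifi204 and Rtp4 in each LSK library against the summed CPM of 7 macrophage markers (log axis), coloured by group. The 4 libraries with 1070 to 6560 CPM of macrophage markers hold 16.03 to 26.8 CPM of Ifit3, and the other libraries hold at most 6.54 CPM.

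Under ruxolitinib 1 of the 39 genes fell in LSK cells, Rtp4, against 0.0149% of all genes lower. Rtp4 was at 14.6, 11.2 and 11.6 CPM under ruxolitinib, against 49.2 and 98.6 CPM in vehicle C, a log2 change of -2.54 ± 0.38 (SE; edgeR adjusted p = 0.0263), with the libraries apart. Markers of plasmacytoid dendritic cells were at 4.73 to 7.18 CPM in the LSK libraries under ruxolitinib, against 17.8 to 19.1 CPM in vehicle C, and macrophage markers at 79.1 to 108 CPM, against 162 to 177 CPM. Both lists were thus lower in every treated library. The monocyte list was at 566 to 799 CPM, against 343 to 760 CPM, and the T and NK cell list at 544 to 1170 CPM, against 438 to 650 CPM. These lists and the neutrophil, B and plasma cell, late erythroid and megakaryocyte lists overlapped vehicle C. The part of any list in the result was not tested. At an unadjusted p under 0.05 in the edgeR test, 11 members were lower and 0 higher, and DESeq2 called Oas2, Oasl1, Rtp4 and Usp18 lower. The shares of all genes are not given for these counts. The median log2 change was -0.45 over the 39 genes and -0.25 over all genes. Without vehicle C replicate 2 the median of the 39 was -0.11. By mean level over the LSK libraries, the medians of members and of all genes were -1.52 and -0.66 at 3 to 10 CPM. At 30 to 100 CPM they were -0.45 and 0.16. Among genes with a mean CPM of at least 10, Rtp4 and Usp18 fell, against 0.102% of genes. Vehicle C holds 2 LSK libraries, and the call of Rtp4 was lost without vehicle C replicate 2 and without any of the 3 ruxolitinib libraries. Vehicle C and vehicle A differed for 0 of the 39 genes in LSK cells by edgeR and by DESeq2 (0.772% of all genes by edgeR), with 2 at an unadjusted p under 0.05. The day 7 response minus the ruxolitinib response passed for 0 of the 39 genes in LSK cells, against 0.00371% of genes, with 10 at an unadjusted p under 0.05 and 1 by DESeq2.

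Whether MEP and LSK cells differed in their responses was tested in a fit of all 32 libraries. At day 7 the MEP response exceeded the LSK response for 4 of the 39 genes, against 0.296% of genes higher. The differences were 3.03 ± 0.68 for Rtp4 (edgeR adjusted p = 0.0321), 2.37 ± 0.54 for Ifi44 (edgeR adjusted p = 0.0354), 2.22 ± 0.48 for Ddx60 (edgeR adjusted p = 0.0261) and 1.66 ± 0.36 for Ddx58 (edgeR adjusted p = 0.0286). In LSK cells Ddx58 was at 83.0, 89.4, 66.5 and 69.4 CPM at day 7, against 65.0, 117.6, 67.9 and 73.6 CPM in vehicle A. Among genes with a mean CPM of at least 10, 16 of 33 members passed, all with the larger response in MEP cells, against 5.44% of genes. That mean is over all 32 libraries, the tamoxifen libraries among them, so the minimum is not independent of the difference. Some members, such as Ifi44 and Ddx60, were under 10 CPM in every MEP vehicle and ruxolitinib library. The count over all genes was 0 without vehicle A replicate 2 of MEP, without day 7 replicate 3 of MEP or without day 7 replicate 1 of LSK.

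At day 3 the responses differed for 0 of the 39 genes by the edgeR test, against 0.0529% of genes, with 13 at an unadjusted p under 0.05 and 3 (Ddx58, Ddx60 and Rtp4) by DESeq2. Under ruxolitinib 0 passed by edgeR, against 0.292% of genes, with 4 at an unadjusted p under 0.05 and 1 (Rsad2) by DESeq2.

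The starting levels differed between the cell types. Under vehicle A, MEP cells had the lower level in 21 of the 39 genes and the higher level in 1, against 8.71% lower and 8.70% higher among 28378 genes. The median log2 difference was -1.02 over the 39 genes and -0.27 over all genes. Under vehicle C, 18 were lower, against 8.46%, and that count was 10 without LSK vehicle C replicate 2. Oasl2 was at 9.34, 5.23 and 5.26 CPM in MEP vehicle A, against 53.4, 142.4, 47.4 and 74.6 CPM in LSK vehicle A (-3.59 ± 0.51; edgeR adjusted p = 3.07e-06). Rtp4 was at 12.5, 3.02 and 4.79 CPM in MEP cells, against 45.7, 110.7, 48.0 and 58.4 CPM in LSK cells (-3.28 ± 0.53; edgeR adjusted p = 2.32e-05). No MEP library reached the lowest LSK library in either gene. Oasl1 was the gene that was higher in MEP cells, at 44.8, 28.7 and 30.1 CPM, against 11.4, 19.4, 6.82 and 21.8 CPM in LSK cells (1.22 ± 0.40; edgeR adjusted p = 0.0302).

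With tamoxifen, the MEP levels of Ifi44 and Rtp4 overlapped the LSK vehicle A range, and the lowest day 7 library of each lay under it. Ifi44 at day 7 in MEP cells, 19.6 to 31.6 CPM, lay beside 20.04 to 42.3 CPM in LSK vehicle A, and Rtp4, at 40.5 to 67.4 CPM, beside 45.7 to 110.7 CPM. Oasl2, at 19.7 to 32.1 CPM, stayed below the 47.4 CPM of the lowest LSK vehicle A library.

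Members known to be high in stem cells showed other patterns. Ifitm3, which blocks the entry of viruses, had the highest level per kilobase of exon in vehicle A of both cell types, at 158 ± 108 CPM per kb in MEP (SD, n = 3) and 421 ± 198 in LSK (SD, n = 4), and Mx2 had the lowest, at 0.272 ± 0.147 and 0.826 ± 0.504. In MEP cells Ifitm3 was at 57.3, 125.6, 92.9 and 54.0 CPM at day 3 and at 71.1, 71.1 and 115.4 CPM at day 7, against 191.5, 68.9 and 60.9 CPM in vehicle A. It was at 131.4, 164.8 and 137.0 CPM under ruxolitinib, against 286.7, 124.1 and 102.2 CPM in vehicle C. The groups overlapped throughout, and Ifitm3 passed in no treatment comparison.

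In LSK cells Ifitm3 was at 297.7, 260.0 and 137.6 CPM at day 3 and at 347.2, 411.5, 272.9 and 188.8 CPM at day 7, against 277.5, 477.6, 196.3 and 190.3 CPM in vehicle A. Under ruxolitinib it was at 709.8, 622.0 and 555.9 CPM, against 448.8 and 801.0 CPM in vehicle C. The values of each treatment lay across those of its vehicle.

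Ly6e, a membrane-anchored protein, was at 688, 607, 674 and 444 CPM in MEP cells at day 3 and at 516, 347 and 637 CPM at day 7, against 567, 459 and 369 CPM in vehicle A, and at 1076, 1162 and 796 CPM under ruxolitinib, against 781, 698 and 707 CPM in vehicle C. In LSK cells it was at 1106, 842 and 606 CPM at day 3 and at 1264, 1134, 1137 and 808 CPM at day 7, against 638, 1665, 645 and 729 CPM in vehicle A, and at 2284, 1594 and 1197 CPM under ruxolitinib, against 915 and 2002 CPM in vehicle C. Ly6e passed in none of these comparisons, although the 3 MEP libraries under ruxolitinib were above vehicle C. In the test of genes with a mean CPM of at least 10 alone it rose in MEP cells at day 7 (0.52 ± 0.14; edgeR adjusted p = 0.00936), and over the alternatives its log2 change there ran from -0.10 to 0.65, with an adjusted p of up to 0.963.

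Bst2 (tetherin), which holds budding virus at the cell surface, was at 47.1, 71.7, 68.5 and 44.3 CPM in MEP cells at day 3 and at 55.4, 29.6 and 57.4 CPM at day 7, against 97.4, 31.4 and 42.8 CPM in vehicle A, and at 88.7, 89.0 and 52.0 CPM under ruxolitinib, against 118.7, 44.8 and 58.4 CPM in vehicle C. In LSK cells it was at 80.3, 62.2 and 44.9 CPM at day 3 and at 64.1, 54.2, 69.2 and 44.6 CPM at day 7, against 43.1, 74.9, 42.8 and 38.2 CPM in vehicle A, and at 103.9, 79.1 and 62.7 CPM under ruxolitinib, against 55.7 and 89.9 CPM in vehicle C. All of these ranges overlapped. In all, 27 of the 39 genes passed in at least 1 of the 6 treatment comparisons. The share of all genes that did so was not counted. In MEP cells under ruxolitinib alone, 38.5% of all genes fell and 3.43% rose. The 12 that passed in none were Ifit2, Ifit3, Ifi35, Stat2, Bst2, Trim25, Lgals3bp, Samd9l, Tor3a, Ube2l6, Ly6e and Ifitm3. Of these, Ifi35, Bst2, Tor3a and Ifitm3 also passed under no alternative. Stat2 passed in MEP cells under 6 of 15 alternatives at day 3 and under 5 of 14 at day 7, Trim25 under 4 of 14 at day 7 and Samd9l under 3 of 14 at day 7.

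Upstream of these targets, the interferon genes themselves were barely counted. Of 17 ligand genes in the table, 11 were tested in LSK cells and 4 in MEP cells, and 0 passed in any treatment comparison by the edgeR test. At an unadjusted p under 0.05, 1 was lower in MEP cells at day 7 and 1 under ruxolitinib, and in LSK cells 1 was higher at day 3 and 1 at day 7; DESeq2 called 1 lower in MEP cells under ruxolitinib and 0 elsewhere. The highest value of any ligand in any library was 3.01 CPM, for Ifnb1.

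Of 12 receptor, kinase and factor genes, 3 rose and 0 fell at day 3 in MEP cells, 1 rose and 1 fell at day 7, and 2 rose and 2 fell under ruxolitinib. Among all genes tested, 0.886% rose and 0.324% fell at day 3, 1.38% rose and 7.03% fell at day 7, and 3.43% rose and 38.5% fell under ruxolitinib. The share of these 12 that fell was thus near that of all genes at day 7 and below it under ruxolitinib. Irf7, which drives the second wave of interferon production, was at 84.2 to 159 CPM at day 3 and 62.5 to 120 CPM at day 7, against 21.3 to 37 CPM in vehicle A, with log2 changes of 2.16 ± 0.30 (edgeR adjusted p = 0.000153) and 1.83 ± 0.30 (edgeR adjusted p = 0.00015). Under ruxolitinib it was at 7.71 to 10.2 CPM, against 33.4 to 49.6 CPM in vehicle C (-2.30 ± 0.31; edgeR adjusted p = 6.36e-05). Irf7 was thus separated from vehicle in all 3 MEP comparisons, and it also fell in LSK cells under ruxolitinib (-2.39 ± 0.40; edgeR adjusted p = 0.0498).

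The receptor gene Ifnar1 was at 12 to 22.3 CPM in MEP cells at day 7, against 36.9 to 58 CPM in vehicle A, and fell by 1.29 ± 0.26 (edgeR adjusted p = 0.00123). At day 3 Ifnar2 rose by 1.67 ± 0.41 (edgeR adjusted p = 0.0428) and Jak1 by 1.46 ± 0.37 (edgeR adjusted p = 0.0488). Under ruxolitinib Irf9 fell by 0.96 ± 0.27 (edgeR adjusted p = 0.00755), while Ifnar2 and the interferon gamma receptor gene Ifngr1 rose, by 1.09 ± 0.42 and 0.81 ± 0.25. Tyk2 did not pass, and its log2 change in MEP cells lay between -0.25 and 0.23.

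Of 48 tested genes on a list of other interferon-induced genes, 3 rose and 0 fell in MEP cells at day 3, 11 rose and 3 fell at day 7, and 4 rose and 6 fell under ruxolitinib, with medians of 0.42, 0.45 and 0.07. The 11 of 48 that rose at day 7 stand beside 1.38% of all genes, the 3 that fell beside 7.03%, and the 6 that fell under ruxolitinib beside 38.5%, a larger share than on this list. At day 3 these were Tdrd7, Trim12c and Trim30a, with log2 changes of 1.44, 1.29 and 1.31. At day 7 those that rose were Oas1g, a close copy of Oas1a, at 2.37 ± 0.52, Ifi205 at 3.27 ± 0.83, Ifitm1 at 3.45 ± 0.53, and the antiviral ligase genes Trim21, Trim30a, Trim30d and Trim34a, at 1.26 to 2.44, together with Trim12c, Pyhin1, Ifi203 and Sp110, at 0.92 to 1.93. The genes that fell at day 7 were the antigen presentation genes H2-D1 (-3.74 ± 0.31) and Tap1 (-1.61 ± 0.48), and Nt5c3 (-0.97 ± 0.30). Ifitm1 also rose under ruxolitinib, by 4.49 ± 0.55, as did Epsti1, Psme2 and Ifitm2, by 0.72 to 1.12, while Oas1g fell by 2.79 ± 0.57, Rnf213 by 1.60 ± 0.27, and Mnda, Apol9a, Apol9b and Oas1b had values of -3.56 to -2.30.

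Of 17 tested genes that lean on interferon gamma, 0 passed in MEP cells at day 3, 2 rose at day 7 (Cd74 and H2-Aa, of antigen presentation) and 7 fell under ruxolitinib, namely Cxcl9 (-2.89 ± 0.59), Ciita (-2.61 ± 0.57), Gbp4, Nos2, Ido1, Cxcl10 and Tgtp1. The 7 of 17 that fell are near the 38.5% of all genes that fell. In LSK cells 2 fell at day 7, Gbp4 (-2.59 ± 0.41) and Gbp6 (-2.63 ± 0.45), against 0.104% of all genes in either direction. At LSK day 3 the edgeR test called 0 of the 17, with 12 lower at an unadjusted p under 0.05 and 5 lower by DESeq2, and under ruxolitinib it called 0, with 7 lower at an unadjusted p under 0.05 and 3 lower by DESeq2. Of 7 tested feedback inhibitors of the receptor besides Usp18 and Isg15, 0 passed at day 3 or day 7 in MEP cells and 3 rose under ruxolitinib (Pias4, Ptpn1 and Ptpn6), against 3.43% of all genes. By the edgeR test at an unadjusted p under 0.05, 2 of these 7 were higher at day 3 and 2 lower at day 7, and DESeq2 called 1 higher at day 3 and 0 at day 7. Of 18 tested nucleic acid sensors and adaptors, 0 passed at day 3, 1 rose (Aim2, 1.10 ± 0.32) and 2 fell at day 7 (Myd88, -1.17 ± 0.27, and Rnaseh2c, -4.30 ± 0.34), and 1 fell under ruxolitinib (Tlr9, -4.37 ± 0.93), where 7.03% and 38.5% of all genes fell. At day 3, 3 sensors were lower at an unadjusted p under 0.05 by edgeR and DESeq2 called 0. The corresponding numbers for the interferon gamma list at day 3 were 2 higher and 1 lower by edgeR and 1 lower by DESeq2.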

How the data were processed

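Gene counts from 32 RNA sequencing libraries of sorted mouse LSK and MEP cells were analysed. The authors deposited whole-number counts per gene symbol, with no normalization. Alignment with STAR to build mm10 and counting with featureCounts are named per the submitters' processing notes, and the labels' protocols name TriZOL, a Zymo Direct-Zol extraction and the Takara HT-Seq kit with paired ends. Their versions, the annotation, the strand setting and the rule for multiply aligned reads are not given. Reads of overlapping genes (10 of the 39 members, by GENCODE M21 exons) and of close copies (Ifit3, Oas1a, Ifi204) may therefore be shared.

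Each cell type was fitted with edgeR 4.0.16 in R 4.3.3 (two-sided quasi-likelihood F test with TMM factors, after filterByExpr with min.count 10), with a mean per group and 16 libraries. Differences between cell types came from a fit of all 32. P-values were adjusted by Benjamini-Hochberg over all genes tested, with a threshold of 0.05. Counts at an unadjusted p under 0.05 and by DESeq2 are given without the share over all genes. Standard errors are the log2 change divided by the root of F. Printed CPM use TMM factors over all 32 libraries, so a ratio of printed means can differ from the fitted change. The script was tested on simulated data. P-values measure the spread between animals as numbered in the labels; LSK and MEP libraries of 1 animal were treated as independent (voom correlation within an animal 0.045). Total counts were 11160696 to 55473241. Same-numbered MEP libraries of day 7 and day 3 deviated together (r 0.16 to 0.18 in the 3 pairs), by the data and not by a label. No other comparison examined had this in every pair. Vehicle C and vehicle A libraries of the same animal number were not examined in this way, and the main fit treated them as independent. The lowest chi-square per degree of freedom between libraries of a group was 13.7, so none was a duplicate.

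The members, lists, tests and alternatives were chosen with earlier results of these data known. Values in every library are given for at most 6 called members per treatment comparison, by absolute change, and for Ifitm3, Ly6e and Bst2. Other members are given by counts and ranges, and values named beside these (Mx1, Cmpk2, Trim25, Ifit3, Ifi204, Ddx58, Oasl1 and Oasl2) were chosen after they were seen. Alternatives were RLE factors, DESeq2 1.42.0, no filter, a mean CPM of at least 10 over all libraries of the fit, the compared groups alone, the replicate number or animal as a block, and leaving out each library (limma 3.58.1 for voom). Scaling by total counts and a GC offset were added after seeing the data. Promoter windows are RefSeq's.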

Additional observations from a re-analysis of the deposited data

Results flagged for a closer look

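Of 120 groups of 4 libraries examined (a gene in a cell type and treatment), 13 held a library far from the other 3, where chance gives about 1 in 20 for independent groups. These groups are not independent, because the genes were measured in the same libraries, so no excess over chance can be read from the count. In LSK vehicle A, replicate 2 stood far above the others for 8 genes: Oas1a at 80.0 CPM, Oas3 at 94.6 CPM, Ddx58 at 117.6 CPM, Bst2 at 74.9 CPM, Parp9 at 121.1 CPM, Trim25 at 132.9 CPM, Sp100 at 251.3 CPM and Ly6e at 1665 CPM. Animal number 18, from which this library came, also gave LSK vehicle C replicate 2, where the mean log2 level of the 39 genes was 5.88, against 5.27 in replicate 1. In the same group Ifi204 was at 14.9 CPM in replicate 3, against 2.52 to 3.21 CPM in the others. LSK day 7 replicate 2 was high for Ifit2, at 62.6 CPM, and for Eif2ak2, at 78.4 CPM, and carries number 18 as well. MEP day 3 replicate 3 was high for Oasl1, at 109.4 CPM, and replicate 1 was low for Parp12, at 4.45 CPM.

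Responses that differed between the cell types by a test of the difference itself were those at day 7 of Rtp4 (3.03), Ifi44 (2.37), Ddx60 (2.22) and Ddx58 (1.66), each a log2 change in MEP cells minus that in LSK cells.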

How the results depend on the processing

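No value for a called gene changed sign under any setting. Counts of the 39 genes that moved by more than 1.5 times are given here with the cause not tested, except that fewer genes or libraries enter some fits. For MEP genes higher at day 3 (11), DESeq2 gave 19, the compared groups alone 19, the GC offset 18 and a mean CPM of at least 10 gave 17. For MEP genes higher at day 7 (17), total-count scaling gave 26, with a median over all genes of 0.72 against 0.21 in the main fit. For those lower (0), RLE factors, DESeq2 and the CPM minimum each gave 1. For MEP genes lower under ruxolitinib (23), the compared groups alone gave 14. Between day 7 and day 3 the MEP count (2) was 4 under the CPM minimum and the GC offset, and the LSK count (0) was 3 by DESeq2 and with the compared groups alone and 1 under the CPM minimum. For LSK genes lower under ruxolitinib (1), DESeq2 gave 4 and the CPM minimum, total-count scaling and the GC offset each 2. For the LSK day 7 response minus the ruxolitinib response (0), the CPM minimum gave 2 and DESeq2, total-count scaling and the GC offset each 1. For MEP vehicle C minus vehicle A (1), DESeq2 gave 3 and the compared groups alone, total-count scaling and the GC offset each 0. For the MEP minus LSK responses, DESeq2 gave 3 at day 3 (0) and 1 under ruxolitinib (0), and at day 7 (4) DESeq2 gave 11, the CPM minimum 16, total-count scaling 13 and the GC offset 9.

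Treatment and vehicle libraries of 1 replicate number did not deviate together in every pair (r -0.35 to 0.39), although r was positive in all pairs of LSK day 3 and vehicle A (0.07, 0.18 and 0.39). With the replicate number as a block, 10 MEP genes rose at day 3, 17 rose at day 7 and 22 fell under ruxolitinib, and the LSK count under ruxolitinib was 0; between day 7 and day 3 in MEP cells 2 passed, as without the block. With the animal as a random block, 21 (vehicle A) and 18 (vehicle C) genes differed between MEP and LSK, and 3 responses differed at day 7.

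Leaving out 1 library at a time gave these ranges. In MEP cells 2 to 16 genes rose at day 3 and 7 to 16 at day 7, 0 to 1 fell at day 7, and under ruxolitinib 0 to 1 rose (Cmpk2, without vehicle C replicate 3) and 16 to 21 fell. In LSK cells 0 to 2 rose at day 3 and 0 to 1 fell under ruxolitinib. Between day 7 and day 3 the count was 1 to 2 in MEP and 0 to 1 in LSK cells, between day 7 and ruxolitinib responses 20 to 25 and 0 to 1, and between vehicles 0 to 2 and 0 to 2. MEP against LSK gave 16 to 22 under vehicle A and 10 to 19 under vehicle C, and differences of response 0 at day 3, 0 to 6 at day 7 and 0 to 1 under ruxolitinib. Where the smaller group keeps 1 library, it is assumed to vary like the others. Groups of 2 to 4 libraries, and levels under 10 CPM in MEP cells, limit what could pass.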
